A study of Mus musculus with 12 samples.

Results

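Transcript levels of 41 cell cycle and DNA replication genes were examined in primary podocytes of diabetic mice with intact or deleted floxed alleles of Nsd2, a histone methyltransferase that dimethylates lysine 36 of histone H3. The genes were chosen by symbol, with earlier results of these data known. All 41 were listed among the 23829 genes measured at 20 weeks and the 23777 measured at 28 weeks. They comprised 20 genes of mitosis, 18 genes of DNA replication and S-phase entry, and the 3 D cyclins. All 12 libraries came from mice made diabetic with high-fat diet and streptozotocin (HFD/STZ), and libraries of mice without diabetes were not used here. Control mice were Cre-/Nsd2fl/fl and carried floxed Nsd2 alleles without Cre, whereas knockout mice were Cre+/Nsd2fl/fl and carried Cre to delete the gene in podocytes, the epithelial cells of the kidney filter. The labels do not name the promoter that drives Cre. Podocytes were taken at 20 weeks of age, an early stage of the kidney disease per the labels, or at 28 weeks, an advanced stage, with 3 libraries per genotype and age. Whether libraries of 1 group are from different animals is not in the labels, so the p-values describe the spread among these libraries, part or all of which may be technical.

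As background, D cyclins bind the kinases CDK4 and CDK6 in G1 phase and start the phosphorylation of the retinoblastoma protein, which releases E2F transcription factors. E2F factors then drive genes of S phase, among them cyclin E, the MCM helicase and the enzymes that make deoxynucleotides, and a later wave of genes, driven by B-MYB and FOXM1, carries cells through mitosis. Mature podocytes are held out of the cell cycle, and podocytes that enter it often fail to complete mitosis, whereas podocytes in primary culture can divide.

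The tables allowed all 41 genes to be tested at both ages, with 62 to 60004 reads per gene and library out of 31405349 to 38989180 reads in all. Nsd2 itself was at 94.2, 66.6 and 79.0 counts-per-million (CPM) in controls against 51.7, 34.1 and 45.0 in knockouts at 20 weeks. At 28 weeks it was at 87.2, 77.6 and 80.1 against 35.2, 35.2 and 42.9, so part of the reads counted for Nsd2 remained. Nsd2 overlaps exon bases of Nelfa on the other strand, and the part of Nelfa in these reads was not tested. Nsd2 fell by 0.88 on the log2 scale at 20 weeks (SE 0.21, adjusted p = 0.0402) and by 1.11 at 28 weeks (SE 0.13, adjusted p = 0.00431). The groups did not overlap at either age. The call at 20 weeks was lost without any 1 of the libraries except knockout library 1 (adjusted p of 0.0729 to 0.164). At 28 weeks control libraries 2 and 3 were much closer to each other than any other pair, with a biological coefficient of variation of 0.0483 against 0.219 to 0.414. They differed by more than sampling noise and were kept as separate libraries, and results at 28 weeks are also given with them summed as 1 library. Markers of cell types were summed in each library. The summed level of 15 epithelial junction and keratin genes, none of which was at 0 in a whole group, was 3949 to 7025 CPM in controls and 373 to 2640 in knockouts at 20 weeks. At 28 weeks it was 5422 to 8565 in controls and 141 to 8073 in knockouts. The summed level of 10 smooth muscle and pericyte genes, also with none at 0 in a whole group, was 4443 to 4979 in controls and 10012 to 13928 in knockouts at 20 weeks. At 28 weeks it was 3070 to 3308 in controls and 7130 to 15964 in knockouts. The summed level of 10 leukocyte genes was 72.5 to 354 in controls and 246 to 432 in knockouts at 20 weeks. At 28 weeks it was 71.2 to 90.0 and 605 to 828, and the T-cell gene Cd3e was at 0 in all knockout libraries. At 20 weeks 8 of the 10 were tested, with 2 positive and 6 negative log2 fold changes (median -0.61). None was called, where 9.92% of all genes tested were. At 28 weeks all 8 tested were positive (median 1.43) and 3 rose, where 9.33% of all genes tested rose. Of 12 tubule genes 10 were listed at 20 weeks, with a summed level of 301 to 695 in controls and 11.7 to 21.2 in knockouts, where Slc34a1 and Aqp2 were at 0 in all 3 libraries. At 28 weeks 8 were listed, with 207 to 601 in controls and 8.21 to 376 in knockouts. The sum of 10 endothelial genes overlapped between genotypes at both ages. The sum of 15 podocyte genes was 2307 to 3671 in controls and 4852 to 6247 in knockouts at 20 weeks, and 2827 to 5361 and 1937 to 4390 at 28 weeks. The podocyte gene Nphs1 was read in every library, at no more than 15.2 CPM. At 20 weeks it was at 7.49, 4.85 and 1.45 CPM in controls against 1.72, 7.35 and 5.40 in knockouts. At 28 weeks it was at 15.2, 8.39 and 8.56 against 1.44, 3.49 and 0.914, without overlap. Of the 15 podocyte genes 8 rose and 0 fell at 20 weeks, and 0 rose and 3 fell at 28 weeks. Over all genes tested 4.79% rose and 5.13% fell at 20 weeks, and 9.33% rose and 11.9% fell at 28 weeks. The part of these differences in the cell cycle results was not tested, and in bulk RNA a smaller number of cells of a type and less RNA per cell cannot be told apart.

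The promoters show how the replication and mitosis genes differ in sequence. RefSeq windows on GRCm38.p6, from 250 bases before to 50 bases after the annotated start, were matched for 31 of the 41 genes, 15 of each large class and Ccnd3. No window was matched for Ccna2, Aurkb, Foxm1, Kif20a, Tpx2, Mcm4, Gmnn, Ccne2, Ccnd1 and Ccnd2. Both strands were searched for an E2F word (TTTGGCGC or TTTCCCGC), for the cell cycle homology region of mitotic promoters, or CHR (TTTGAA or TTCGAA), and for CCAAT, to which NF-Y binds. No word contains another. The E2F word was found in 7 of 15 replication promoters (46.7%) and 0 of 15 mitosis promoters, against 1.8% of the 27025 promoters of all genes. The CHR word was found in 3 of 15 replication promoters (20.0%) and 12 of 15 mitosis promoters (80.0%), against 21.7% of all genes. CCAAT was found in 9 of 15 replication and 14 of 15 mitosis promoters, against 41.1% of all genes. These are matches of letters, not shown to be bound sites.

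Below are 4 of these promoters, 5′ to 3′ on the strand of the gene, with matched words in capitals on whichever strand they lie (ATTGG is CCAAT and GCGCCAAA is TTTGGCGC on the other strand). Cdk1, on the minus strand of chr10:69352863-69353162, shows the mitotic arrangement of CHR and CCAAT words. Mcm5, on the plus strand of chr8:75109259-75109558, carries an E2F word with CCAAT. Rrm1, on the plus strand of chr7:102441445-102441744, and Rrm2, on the plus strand of chr12:24708004-24708303, encode the subunits of ribonucleotide reductase and are shown because their fold changes had opposite signs. Neither holds the E2F or CHR words searched.
Cdk1: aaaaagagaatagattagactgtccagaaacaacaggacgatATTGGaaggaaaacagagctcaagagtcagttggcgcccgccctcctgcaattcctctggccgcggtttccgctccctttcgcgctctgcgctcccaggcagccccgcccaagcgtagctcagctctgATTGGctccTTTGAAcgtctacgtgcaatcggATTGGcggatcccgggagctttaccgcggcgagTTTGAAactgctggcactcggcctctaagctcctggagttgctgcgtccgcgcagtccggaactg
Mcm5: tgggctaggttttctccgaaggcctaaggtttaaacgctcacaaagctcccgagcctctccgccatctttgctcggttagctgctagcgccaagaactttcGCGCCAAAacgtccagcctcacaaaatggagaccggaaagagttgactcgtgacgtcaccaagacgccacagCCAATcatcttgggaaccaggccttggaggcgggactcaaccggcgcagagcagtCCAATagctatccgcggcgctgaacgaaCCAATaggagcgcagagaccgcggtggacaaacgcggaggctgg
Rrm1: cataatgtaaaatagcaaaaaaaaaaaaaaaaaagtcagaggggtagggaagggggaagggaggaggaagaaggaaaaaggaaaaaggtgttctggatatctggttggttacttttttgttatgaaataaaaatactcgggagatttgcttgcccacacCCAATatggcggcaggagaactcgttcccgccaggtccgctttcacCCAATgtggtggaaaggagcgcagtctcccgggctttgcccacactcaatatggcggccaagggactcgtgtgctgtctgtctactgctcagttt
Rrm2: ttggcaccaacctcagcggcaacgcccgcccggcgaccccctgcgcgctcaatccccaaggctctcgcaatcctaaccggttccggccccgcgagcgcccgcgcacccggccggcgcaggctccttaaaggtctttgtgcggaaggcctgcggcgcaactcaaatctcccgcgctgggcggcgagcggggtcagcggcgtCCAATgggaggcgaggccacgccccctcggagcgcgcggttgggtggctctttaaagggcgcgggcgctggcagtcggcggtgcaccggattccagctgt

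Few of the 41 genes passed the test between genotypes. At 20 weeks Rrm1 rose, Ccnd1 fell and 39 did not pass, and 9.92% of the 14853 genes tested were called in either direction (4.79% risen, 5.13% fallen). At 28 weeks Tpx2, Rrm2, Mybl2 and Ccnd1 fell, none rose and 37 did not pass, and 21.2% of the 15011 genes tested were called (9.33% risen, 11.9% fallen). Ccnd1 was the gene called at both ages. The count at 28 weeks fell to 2 without control library 1, to 1 without control library 2 or 3 and to 1 with those summed. It rose to 8 without knockout library 2. Calls over all genes at 28 weeks numbered 3183 with every library kept. They numbered 1973, 1288 and 1266 without control library 1, 2 or 3, and 1299 with 2 and 3 summed. Without knockout library 2 they numbered 2057. The share of the 41 with an unadjusted p below 0.05 was 14.6% at 20 weeks, against 25% of all genes tested, and 26.8% at 28 weeks, against 34.8%. The median log2 fold change (knockout over control) of the 41 was 0.20 at 20 weeks, with 29 values positive and 12 negative, and -0.17 at 28 weeks, with 14 positive and 27 negative. Over all genes tested the medians were 0.01 and 0.07.

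**Figure D1:**
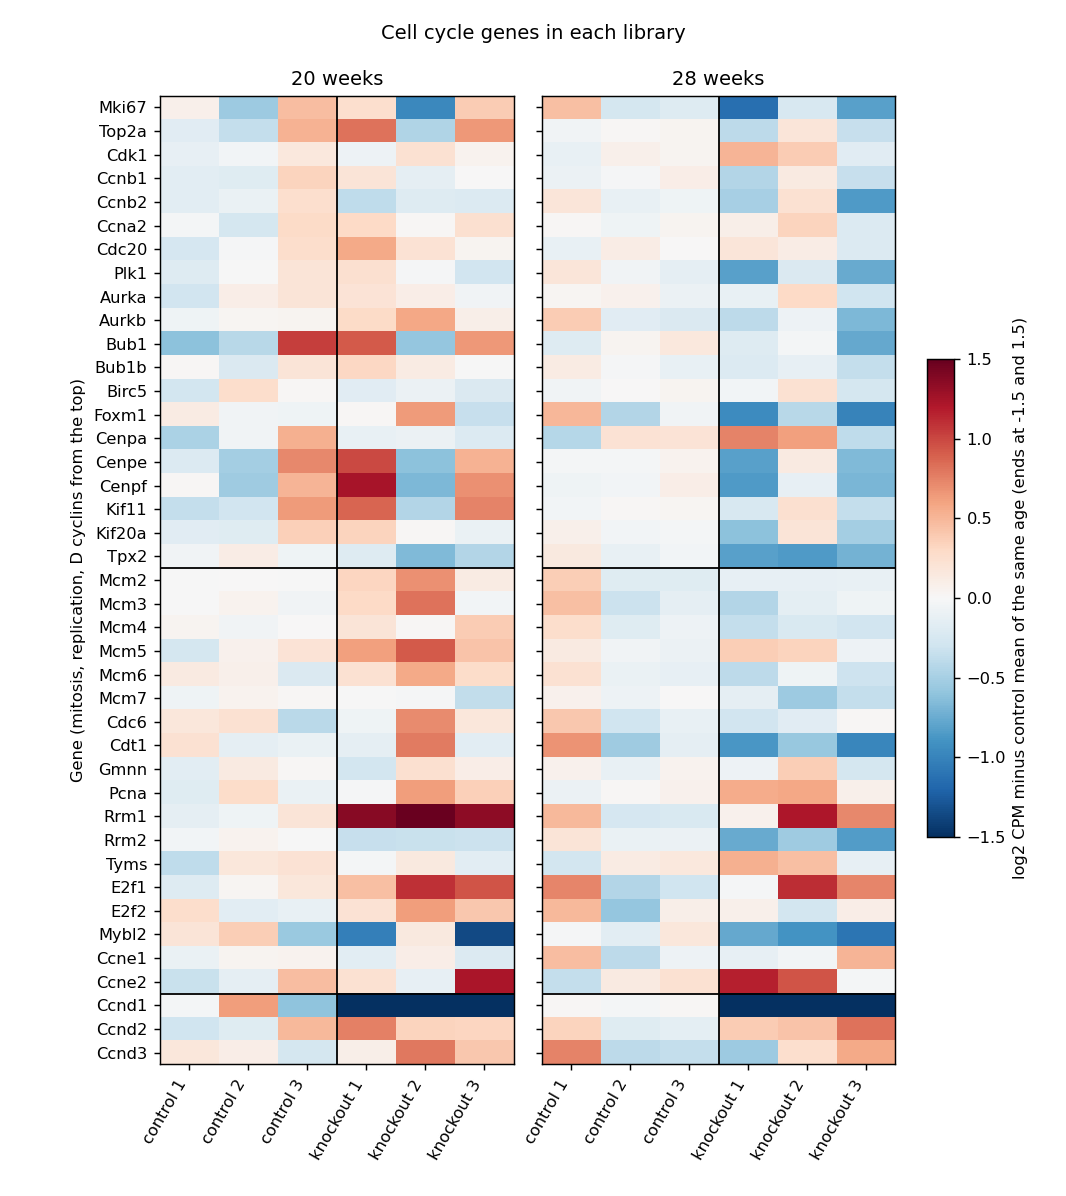
Each row is 1 of the 41 genes and each column 1 library, with colour for log2 CPM minus the mean of the 3 controls of that age. Ccnd1 is low in all 6 knockout libraries, and Rrm1 is high in the 3 knockout libraries at 20 weeks.

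Without overlap between genotypes, 6 of the 41 were higher and 4 lower in knockouts at 20 weeks, where 15.5% and 16.7% of all genes tested were so separated, 32.2% in either direction. Those higher were Rrm1, E2f1, Mcm2, Mcm5, Mcm6 and Aurkb, and those lower were Ccnd1, Rrm2, Tpx2 and Ccnb2. At 28 weeks 2 were higher (Pcna and Ccnd2) and 10 lower, where 19.3% and 22.8% of all genes tested were separated, 42.2% in either direction. The 10 were Ccnd1, Rrm2, Mybl2, Cdt1, Mcm4, Mcm7, Tpx2, Plk1, Cenpf and Bub1b. Ccnd1, Rrm2 and Tpx2 were thus lower in every knockout library than in every control library at both ages. The share of all genes that were lower in this way at both ages was not counted.

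**Figure D2:**
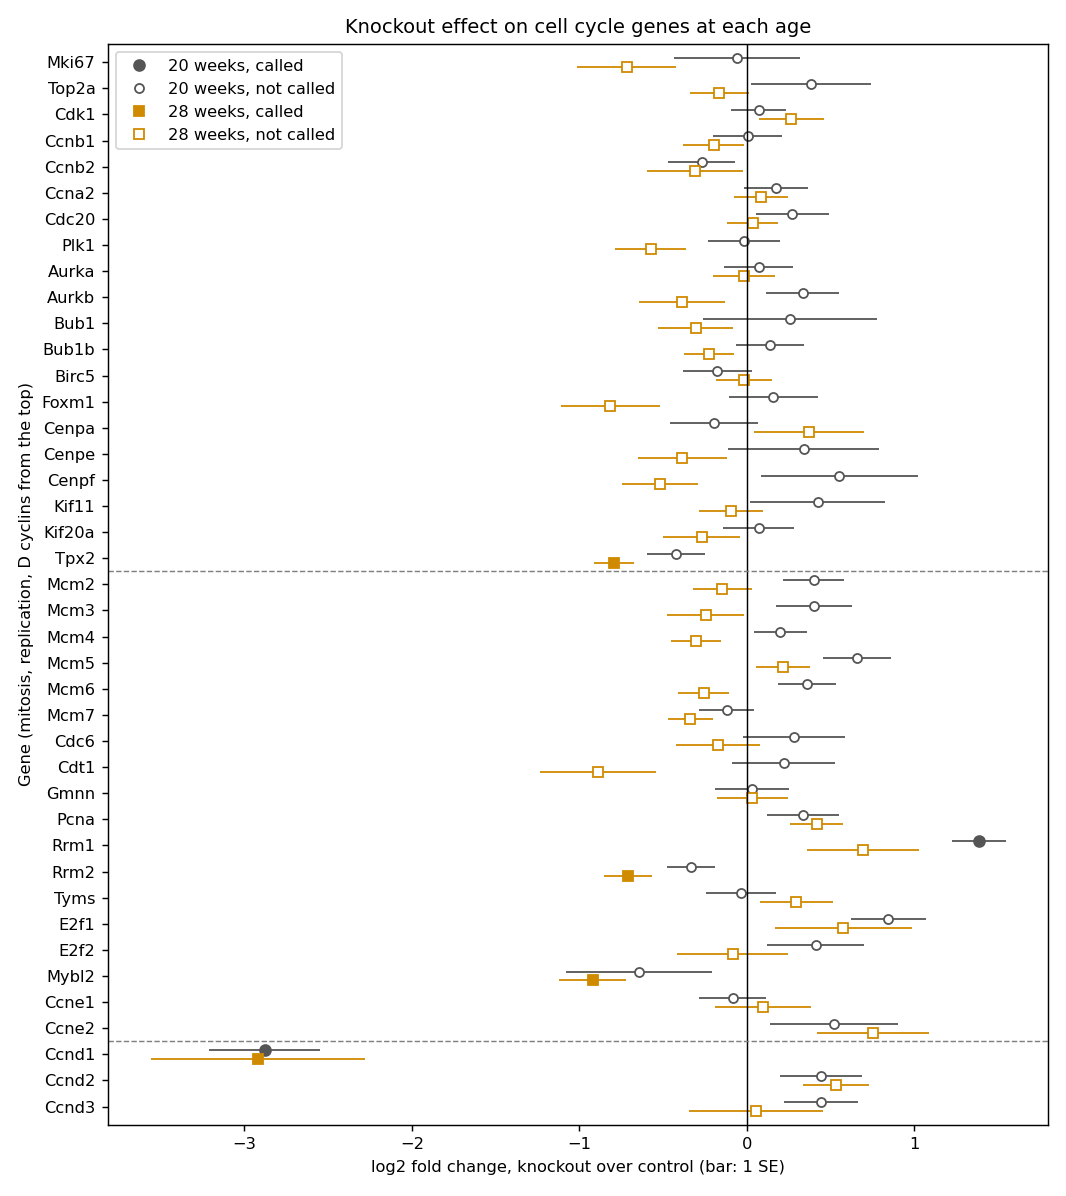
Log2 fold change of knockout over control for each of the 41 genes, with bars of 1 SE, at 20 and 28 weeks. Ccnd1 lies near -2.9 at both ages and Rrm1 at 1.39 at 20 weeks, while the remaining genes lie within 1 unit of 0.

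Among the D cyclins, Ccnd1 carried the largest difference of the 41 genes at both ages. Cyclin D1 is the D cyclin that growth factor signals induce in many cells. At 20 weeks Ccnd1 was at 1034, 1619 and 695 CPM in control libraries 1 to 3 and at 189, 139 and 127 CPM in knockout libraries 1 to 3. The lowest control was several times the highest knockout, although the controls differed widely among themselves. The mean fell from 1116 ± 467 to 152 ± 33.0 CPM (SD, n = 3), a log2 change of -2.88 (SE 0.33, edgeR quasi-likelihood adjusted p = 0.00349). The call held in every alternative tried.

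At 28 weeks the Ccnd1 controls were almost alike, at 1499, 1453 and 1505 CPM, and the knockouts were spread, at 372, 56.5 and 161 CPM. No knockout library reached a control library. The log2 change was -2.92 (SE 0.64, edgeR adjusted p = 0.0229) and ran from -3.77 without knockout library 1 to -2.51 without knockout library 2. The call was lost without control library 1 (adjusted p = 0.0590), 2 (0.0660) or 3 (0.0692), without knockout library 3 (0.0705), and with control libraries 2 and 3 summed (0.0679). It was also lost in a fit with the replicate number as a block. Knockout library 1, the highest in Ccnd1, also had the highest summed level of junction and keratin genes among the knockouts. That sum was 8073 CPM against 141 and 923. Single genes of this library did not all follow the sum. Its level of the junction gene Cdh1 was 18.9 CPM, below knockout library 3, against 509 to 805 in controls. Its level of the keratin gene Krt18 was 213 CPM, the highest of the knockouts, against 714 to 1103 in controls. At 20 weeks knockout library 1 was likewise highest in Ccnd1 and in the sum, with junction and keratin genes at 2640 CPM against 373 and 420.2. The part of that marker level in Ccnd1 was not tested.

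Ccnd1 lies on the minus strand of chromosome 7 from 144929931 to 144939925 (GRCm38, GENCODE M21) and overlaps exon bases of LTO1 on the other strand. No source used here gives the strand setting of the counting, so reads of the pair cannot be told apart. Reads counted for LTO1 stood at 30.7 to 52.2 CPM over the 12 libraries, and the same limit holds for them. Exon bases of genes on the other strand are also overlapped by Ccnd2 (9330179D12Rik and Gm43126), Ccnd3 (Bysl), Mcm7 (Ap4m1 and Cops6) and Ccne2 (Ints8). Ccna2 (Exosc9), Cdc20 (Elovl1), Kif20a (Cdc23) and Plk1 (Gm44985) have such overlaps as well, and the same limit holds. The part of these overlaps in the levels was not tested.

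The other D cyclins were not called. Ccnd2 was at 203, 221 and 349 CPM in controls against 422, 315 and 313 CPM in knockouts at 20 weeks (log2 change 0.44, SE 0.24, adjusted p = 0.316). At 28 weeks Ccnd2 was at 263, 183 and 189 CPM in controls against 273, 281 and 366 CPM in knockouts (0.53, SE 0.20, adjusted p = 0.106). All 3 knockouts lay above all 3 controls at 28 weeks, by a narrow gap. Ccnd3 was at 97.0, 92.5 and 71.7 CPM in controls against 91.6, 149.5 and 114 CPM in knockouts at 20 weeks (0.44, SE 0.22, adjusted p = 0.263). At 28 weeks its libraries overlapped fully, at 132, 60.4 and 61.8 CPM in controls against 54.1, 93.9 and 117 CPM in knockouts (0.06, SE 0.40, adjusted p = 0.941).

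Per length of transcript, in FPKM (fragments scaled by transcript length and library total), Ccnd1 was the most abundant D cyclin in controls and no longer so in most knockouts. At 20 weeks mean FPKM in controls was 306 for Ccnd1, 32.1 for Ccnd2 and 35.9 for Ccnd3, and in knockouts 38.97, 41.1 and 45.7. The share of Ccnd1 in the summed FPKM of the D cyclins was 81.3%, 87.1% and 72.2% in controls and 36.4%, 27.4% and 28.7% in knockouts. At 28 weeks the share was 82.5%, 89.3% and 89.4% in controls and 64.4%, 17.3% and 32.0% in knockouts, so knockout library 1 kept Ccnd1 as its leading D cyclin. The summed FPKM of the D cyclins was 374 ± 123 in controls and 126 ± 9.07 in knockouts at 20 weeks, and 466 ± 15.2 and 121 ± 33.4 at 28 weeks. These shares follow from the Ccnd1 difference and were not tested separately.

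The subunits of ribonucleotide reductase, which makes the deoxynucleotides used in DNA synthesis, differed in the sign of their fold changes. Rrm1 encodes the large catalytic subunit and lies on the plus strand of chromosome 7 from 102441695 to 102469771, and Rrm2 encodes the small subunit of S phase and lies on the plus strand of chromosome 12 from 24708241 to 24714146. Neither shares exon bases with another annotated gene. Rrm1 at 20 weeks was at 66.8, 70.1 and 83.8 CPM in controls against 188, 204 and 185 CPM in knockouts. Both groups were tight and lay far apart. The mean rose from 73.6 ± 8.98 to 193 ± 10.4 CPM, a log2 change of 1.39 (SE 0.16, edgeR adjusted p = 0.00349), and the call held in every alternative tried. At 28 weeks Rrm1 was at 111, 65.9 and 67.0 CPM in controls against 82.4, 182 and 129.5 CPM in knockouts, with knockout library 1 below the highest control (0.70, SE 0.34, adjusted p = 0.200). Without knockout library 1 the log2 change was 0.93 and the adjusted p 0.0546.

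Rrm2 had negative values at both ages. At 20 weeks it was at 45.9, 49.1 and 47.2 CPM in controls against 37.4, 37.7 and 37.8 CPM in knockouts, without overlap but short of the threshold (-0.33, SE 0.14, adjusted p = 0.192). At 28 weeks Rrm2 was at 58.6, 47.9 and 48.2 CPM in controls against 30.4, 35.4 and 28.8 CPM in knockouts. Every knockout lay below every control, and Rrm2 fell by 0.71 on the log2 scale (SE 0.14, edgeR adjusted p = 0.0181). The call was lost without control library 2 (adjusted p = 0.0580) or 3 (0.0609) and with both summed (0.0587), at log2 changes between -0.81 and -0.61 over all libraries left out in turn. A fit with the replicate number as a block also lost the call.

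The ratio of Rrm1 to Rrm2 in FPKM was therefore higher in knockouts at both ages. At 20 weeks it was 0.794, 0.779 and 0.968 in controls and 2.75, 2.96 and 2.67 in knockouts. At 28 weeks it was 1.03, 0.750 and 0.759 in controls and 1.48, 2.81 and 2.45 in knockouts. The lowest knockout exceeded the highest control at each age. The ratio was chosen after the values of both genes were seen and is given without a test. Tyms, the thymidylate synthase gene, did not share the pattern, at log2 changes of -0.03 at 20 weeks and 0.30 at 28 weeks.

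**Figure D3:**
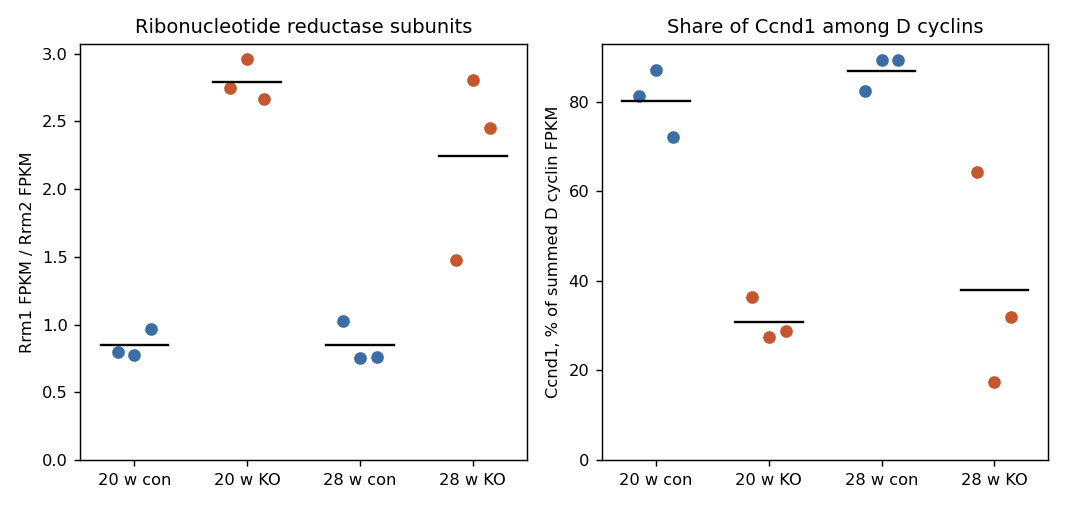
Points are single libraries, with the mean of each group: the ratio of Rrm1 to Rrm2 in FPKM, and the percentage of Ccnd1 in the summed FPKM of Ccnd1, Ccnd2 and Ccnd3. In knockouts the ratio is 1.48 or more in every library while controls reach 1.03 at most, and the Ccnd1 share is 64.4% or less in every knockout while no control is under 72.2%.

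Of the 20 mitosis genes, Tpx2 was the one called. It encodes a spindle assembly factor that activates the Aurora A kinase, and it lies on the plus strand of chromosome 2 from 152847964 to 152895321 without shared exon bases. At 20 weeks Tpx2 was at 47.1, 52.7 and 46.5 CPM in controls against 42.5, 30.8 and 35.8 CPM in knockouts, separated by a narrow gap (-0.42, SE 0.17, adjusted p = 0.179). At 28 weeks Tpx2 was at 60.4, 50.8 and 53.4 CPM in controls against 31.1, 30.4 and 33.6 CPM in knockouts. The knockouts were tight and lay well below the controls, and Tpx2 fell by 0.79 on the log2 scale (SE 0.12, edgeR adjusted p = 0.00782). Leaving out any single library kept the call, at -0.88 to -0.72 and adjusted p of 0.0112 to 0.0414, and so did summing control libraries 2 and 3 (adjusted p = 0.0379). The call was lost in a fit with the replicate number as a block.

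The most used proliferation marker, Mki67, did not pass at either age. Ki-67 coats mitotic chromosomes and is made in all phases of cycling cells. At 20 weeks Mki67 was at 29.9, 19.4 and 39.1 CPM in controls against 33.7, 14.4 and 36.8 CPM in knockouts (-0.06, SE 0.38, adjusted p = 0.951). At 28 weeks Mki67 was at 51.2, 31.2 and 32.9 CPM in controls against 17.1, 31.7 and 21.3 CPM in knockouts, of which 1 lay within the control range (-0.72, SE 0.29, adjusted p = 0.140). The value at 20 weeks changed sign with the library left out, whereas at 28 weeks it stayed between -1.004 and -0.46.

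Top2a, the topoisomerase that untangles sister chromosomes, was at 43.1, 37.7 and 69.4 CPM in controls against 84.9, 35.3 and 76.2 CPM in knockouts at 20 weeks (0.39, SE 0.36, adjusted p = 0.576). At 28 weeks Top2a was at 62.4, 65.3 and 66.3 CPM in controls against 49.1, 73.2 and 50.9 CPM in knockouts (-0.16, SE 0.17, adjusted p = 0.566). The groups overlapped at both ages. Cdk1, the kinase that starts mitosis, was at 35.8, 37.8 and 43.4 CPM in controls against 37.0, 45.5 and 40.5 CPM in knockouts at 20 weeks (0.07, SE 0.16, adjusted p = 0.843). At 28 weeks Cdk1 was at 35.9, 41.1 and 39.9 CPM in controls against 55.6, 50.6 and 34.6 CPM in knockouts (0.27, SE 0.19, adjusted p = 0.387). Cdk1 was thus among the 4 mitosis genes with a positive value at 28 weeks, with Ccna2 (0.09), Cdc20 (0.04) and Cenpa (0.37).

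The kinase genes Aurkb and Plk1 and Foxm1, which encodes a transcription factor of mitotic genes, were not called. Aurkb, the kinase of the chromosomal passenger complex, was at 7.73, 8.27 and 8.33 CPM in controls against 9.88, 12.1 and 8.64 CPM in knockouts at 20 weeks (0.33, SE 0.22, adjusted p = 0.405), and at 11.2, 7.63 and 7.40 CPM against 6.52, 8.18 and 5.40 CPM at 28 weeks (-0.39, SE 0.26, adjusted p = 0.350). Foxm1 was at 16.4, 14.4 and 14.4 CPM in controls against 15.2, 23.4 and 11.9 CPM in knockouts at 20 weeks (0.16, SE 0.27, adjusted p = 0.776). At 28 weeks Foxm1 was at 19.7, 10.3 and 13.4 CPM in controls against 7.24, 10.5 and 6.97 CPM in knockouts (-0.81, SE 0.29, adjusted p = 0.102). Of its knockouts only library 2 reached into the control range, and DESeq2 called the gene (adjusted p = 0.0391). Plk1 at 28 weeks was at 19.3, 16.4 and 15.5 CPM in controls against 9.66, 14.7 and 10.1 CPM in knockouts, without overlap (-0.57, SE 0.21, adjusted p = 0.105).

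Fold changes of the remaining mitosis genes were as follows. At 20 weeks the 20 values ran from -0.42 (Tpx2) to 0.55 (Cenpf), and the median size regardless of sign was 0.19, against 0.31 over all genes tested. Cyclin B genes, whose products partner CDK1, gave 0.01 (Ccnb1) and -0.27 (Ccnb2), and Birc5 (survivin) and Cenpa (centromeric histone) gave -0.18 and -0.20. Cdc20, the activator of the anaphase-promoting complex, gave 0.27, Ccna2 (cyclin A2) 0.17, Bub1b (spindle checkpoint) 0.14, Aurka (Aurora A kinase) and the kinesin gene Kif20a 0.07 each, and Plk1 -0.02. At 28 weeks the values were -0.20 for Ccnb1, -0.31 for Ccnb2, -0.01 for Birc5, -0.02 for Aurka, -0.23 for Bub1b and -0.27 for Kif20a. Cenpf (-0.52), Cenpe (-0.39) and Bub1 (-0.31) gave larger negative values and Kif11 gave -0.10, none of them called. The median size at 28 weeks was 0.29, against 0.37 over all genes tested. Knockout library 2 stood apart at that age, as the highest of the 3 knockouts in 16 of 20 mitosis genes. Without it 8 of the 41 genes were called, all fallen: Plk1, Cenpe, Cenpf and Kif20a beside Tpx2, Rrm2, Mybl2 and Ccnd1. The fit without that library called 2057 of all genes, against 3183 with it.

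A group of 6 mitosis genes varied widely between libraries of 1 genotype at 20 weeks. They are Mki67, Top2a, the checkpoint kinase gene Bub1, the kinetochore genes Cenpe and Cenpf, and the spindle kinesin gene Kif11, and they were singled out after their values were seen. Bub1 was at 5.44, 6.25 and 17.1 CPM in controls against 15.7, 5.56 and 13.1 CPM in knockouts. Cenpf was at 7.83, 5.35 and 11.0 CPM in controls against 18.3, 4.85 and 12.5 CPM in knockouts. Cenpe was at 9.07, 7.36 and 17.3 CPM in controls against 20.8, 6.87 and 15.01 CPM in knockouts. Kif11 showed the same order of libraries in knockouts, at 18.2, 7.35 and 16.7 CPM against 7.75, 8.18 and 15.5 CPM in controls. In each of these genes control library 3 was the highest control and knockout library 2 the lowest knockout.

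As a median over the 6 genes, log2 CPM minus the control mean was 0.89, -0.60 and 0.65 in knockout libraries 1 to 3 at 20 weeks, against 0.19, 0.02 and -0.08 for the other 14 mitosis genes. The transcripts of the 6 are long, with lengths of 4351 to 11365 bases implied by the deposited FPKM, and those of the other 14 are 1541 to 4390 bases. Over the 5096 genes tested in the first length range the median was 0.08, -0.17 and 0.06 in the same libraries. Over the 6870 genes in the second range it was -0.00, 0.09 and -0.01. In control libraries 1 to 3 at 20 weeks the 6 genes gave -0.19, -0.46 and 0.58 and all genes of their length range 0.06, -0.06 and 0.02, so the signs differed in control library 1. At 28 weeks the knockouts gave -0.60, 0.05 and -0.67 for the 6 genes and -0.25, -0.11 and -0.03 for the length range, so the signs differed in knockout library 2. The part of transcript length in the spread of the 6 genes was not tested.

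The replication genes begin with the helicase. Mcm2 to Mcm7 encode the ring that is loaded on origins in G1 and unwinds DNA in S phase. Mcm2 at 20 weeks was at 36.0, 36.4 and 36.0 CPM in controls against 45.2, 58.3 and 39.5 CPM in knockouts (0.40, SE 0.18, adjusted p = 0.225). Its knockouts all lay above its controls, which were nearly identical. At 28 weeks Mcm2 was at 48.0, 32.8 and 32.7 CPM in controls against 34.1, 34.0 and 34.5 CPM in knockouts, now between control library 1 and the others (-0.14, SE 0.18, adjusted p = 0.622). Mcm5 at 20 weeks was at 18.7, 23.3 and 25.8 CPM in controls against 34.4, 42.6 and 30.2 CPM in knockouts, without overlap (0.66, SE 0.20, adjusted p = 0.0822). DESeq2 and the model of all 12 libraries called it, the latter at 0.62 and adjusted p = 0.0368. At 28 weeks Mcm5 was at 28.2, 24.6 and 24.2 CPM in controls against 33.1, 32.3 and 24.3 CPM in knockouts (0.22, SE 0.16, adjusted p = 0.396).

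The other helicase genes gave 0.40 (Mcm3), 0.20 (Mcm4), 0.36 (Mcm6) and -0.12 (Mcm7) at 20 weeks and -0.25, -0.30, -0.26 and -0.34 at 28 weeks, with none called. Mcm6 at 20 weeks was at 67.4, 64.4 and 52.9 CPM in controls against 72.0, 90.9 and 74.0 CPM in knockouts, all 3 above the controls (adjusted p = 0.253). Mcm7 at 28 weeks was at 71.5, 65.0 and 68.4 CPM in controls against 62.2, 46.9 and 53.1 CPM in knockouts, all 3 below the controls (adjusted p = 0.131). The helicase genes were thus mostly positive at the earlier age and mostly negative at the later one, with none past the threshold.

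The loading factors that place the helicase on origins were not called. Cdc6 gave 0.28 at 20 weeks and -0.17 at 28 weeks, and Gmnn, whose product geminin blocks Cdt1, gave 0.03 at both ages. Cdt1, the licensing factor, gave 0.22 at 20 weeks. At 28 weeks Cdt1 was at 11.6, 5.00 and 6.60 CPM in controls against 3.95, 4.88 and 3.69 CPM in knockouts, separated by a gap smaller than the spread of either group (-0.89, SE 0.35, adjusted p = 0.124).

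Pcna, the sliding clamp of the replication fork, was at 95.6, 131 and 101 CPM in controls against 107, 167 and 139 CPM in knockouts at 20 weeks (0.34, SE 0.21, adjusted p = 0.392). At 28 weeks Pcna was at 99.2, 107 and 110.3 CPM in controls against 155, 158 and 111 CPM in knockouts (0.42, SE 0.16, adjusted p = 0.113). Knockout library 3 lay just above the highest control and the others well above, and without knockout library 3 Pcna was called (0.51, adjusted p = 0.0380).

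Of the factors of S-phase entry, E2f1 was closest to a call at 20 weeks. It was at 11.2, 13.1 and 14.4 CPM in controls against 17.5, 27.4 and 24.6 CPM in knockouts, without overlap (0.85, SE 0.22, adjusted p = 0.0525). RLE scaling (adjusted p = 0.0489), DESeq2 (0.00699), testing without a count filter (0.0428) and leaving out knockout library 1 (0.0167) each brought it past the threshold. At 28 weeks E2f1 overlapped, at 23.1, 10.2 and 11.3 CPM in controls against 13.7, 29.9 and 23.0 CPM in knockouts (0.58, SE 0.41, adjusted p = 0.375). E2f2, the gene with the fewest reads of the 41, gave 0.41 and -0.08.

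Mybl2 encodes B-MYB, which joins the MuvB complex on late cell cycle promoters, and lies on the plus strand of chromosome 2 from 163054687 to 163084688. At 20 weeks it was at 9.33, 10.6 and 5.53 CPM in controls against 4.01, 9.05 and 3.18 CPM in knockouts, with knockout library 2 among the controls (-0.65, SE 0.44, adjusted p = 0.421). At 28 weeks Mybl2 was at 7.88, 7.15 and 9.01 CPM in controls against 4.67, 4.29 and 3.74 CPM in knockouts. The groups were separate, and Mybl2 fell by 0.92 on the log2 scale (SE 0.20, edgeR adjusted p = 0.0221). The call was lost without control library 1 (adjusted p = 0.0550), 2 (0.0668) or 3 (0.103), with libraries 2 and 3 summed (0.0762) and in the model of all 12 libraries (0.0874). It was also lost with the replicate number as a block.

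**Figure D4:**
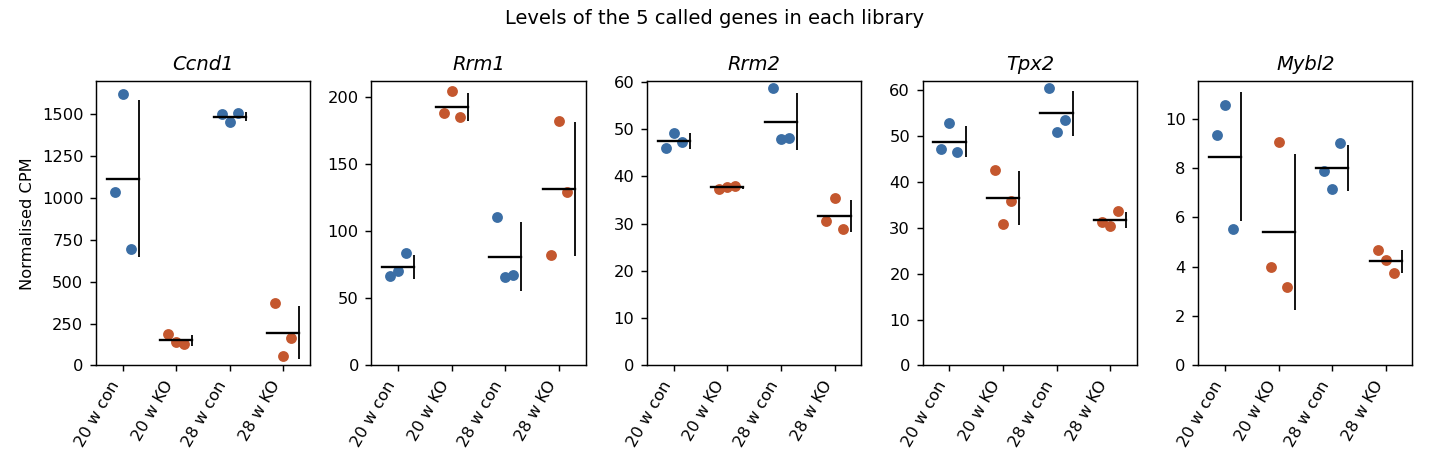
Normalised CPM of Ccnd1, Rrm1, Rrm2, Tpx2 and Mybl2 in each library (points), with the mean and SD of each group of 3, each panel on its own linear axis from 0. Ccnd1, Rrm2 and Tpx2 have all knockouts below all controls at both ages, and Rrm1 has them above at 20 weeks.

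The E cyclins, which activate CDK2 at the start of S phase, were not called. Ccne1 was at 10.1, 11.1 and 11.2 CPM in controls against 9.63, 11.6 and 9.38 CPM in knockouts at 20 weeks (-0.08, SE 0.20, adjusted p = 0.852), and at 15.4, 8.46 and 10.6 CPM against 10.2, 10.8 and 15.8 CPM at 28 weeks (0.10, SE 0.29, adjusted p = 0.848). The groups overlapped fully. Ccne2 was at 8.06, 9.29 and 14.02 CPM in controls against 11.9, 9.31 and 23.8 CPM in knockouts at 20 weeks (0.52, SE 0.38, adjusted p = 0.461). At 28 weeks Ccne2 was at 7.40, 10.3 and 11.0 CPM in controls against 21.1, 18.2 and 9.29 CPM in knockouts (0.76, SE 0.33, adjusted p = 0.164). Of its knockouts, library 3 alone lay within the control range, and without it Ccne2 was called (0.98, adjusted p = 0.0483).

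Replication and mitosis genes were set side by side by their median fold changes, without a test. At 20 weeks the median was 0.31 for replication (13 positive, 5 negative) and 0.11 for mitosis (14 positive, 6 negative). At 28 weeks it was -0.11 for replication (8 positive, 10 negative) and -0.25 for mitosis (4 positive, 16 negative). Leaving out each library in turn gave 0.16 to 0.44 for replication and -0.02 to 0.22 for mitosis at 20 weeks. At 28 weeks it gave -0.28 to 0.06 and -0.45 to -0.17, so the ranges of the classes overlapped at both ages. Both medians come from the same fit for each library left out, so this overlap does not give their order within a fit.

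Library by library the classes parted more than the group medians did. At 20 weeks the replication median of log2 CPM minus the control mean was 0.09, 0.60 and 0.15 in knockout libraries 1 to 3, and the mitosis median was 0.27, -0.09 and 0.02. In controls the replication median was -0.06, 0.05 and 0.00, below all 3 knockouts, and the mitosis median was -0.16, -0.14 and 0.28. Knockout library 2 was the highest of its 3 in 14 of 18 replication genes and the lowest in 9 of 20 mitosis genes. Knockout library 1 was the highest in 1 of 18 replication genes and in 13 of 20 mitosis genes. Without knockout library 2 the median fold change at 20 weeks was 0.16 for replication and 0.14 for mitosis.

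At 28 weeks the replication median was -0.13, -0.10 and -0.09 in knockout libraries 1 to 3, and the mitosis median was -0.40, 0.13 and -0.44. The knockouts were alike in replication and split in mitosis, with library 2 above the control mean and the others below. The controls also differed: control library 1 was at 0.24 in replication and was the highest control in 14 of 18 replication genes, whereas the mitosis medians of the controls lay within 0.02 of 0. Without knockout library 2 the median fold change of mitosis genes at 28 weeks was -0.45. Mitosis medians overlapped between genotypes at both ages, and so did replication medians at 28 weeks.

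**Figure D5:**
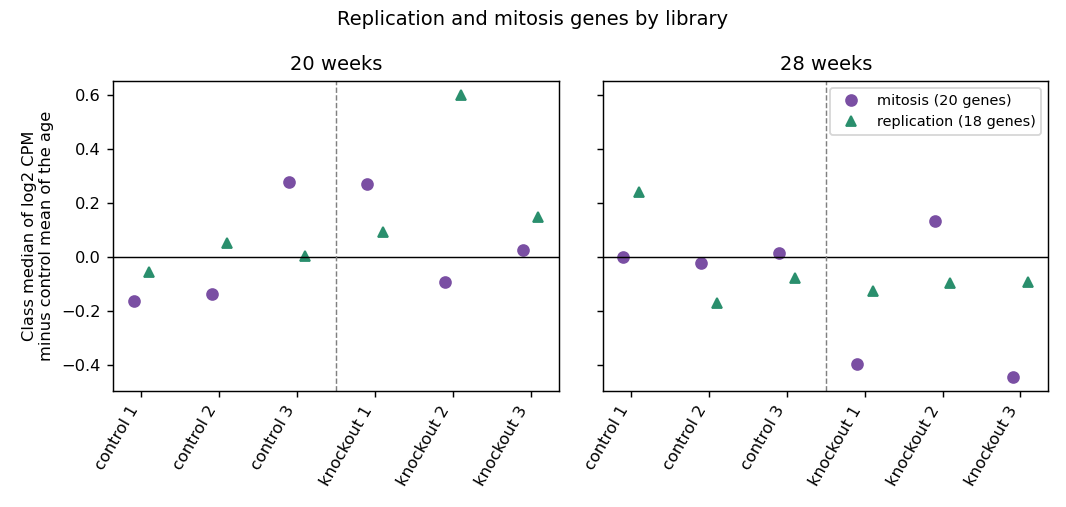
Median of log2 CPM minus the control mean of that age over the 18 replication genes and the 20 mitosis genes, for each library. At 20 weeks knockout library 2 is at 0.60 in replication and -0.09 in mitosis, and at 28 weeks knockout libraries 1 and 3 are at -0.40 and -0.44 in mitosis.

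A model of all 12 libraries compared the ages. No gene was called for a knockout effect that differed between 28 and 20 weeks (0 of 15662 genes, 0%, edgeR), and 6 of the 41 (14.6%) had an unadjusted p below 0.05, against 9.12% of all genes. With each library left out in turn that number ran from 1 (without control library 2 of 20 weeks or control library 1 of 28 weeks) to 9 (without knockout library 2 of 28 weeks). It was 2 without control library 3 of 20 weeks or knockout library 1 or 3 of 28 weeks, and 3 without knockout library 1 of 20 weeks. Without control library 1 of 20 weeks it was 4. The 6 were Cdt1 (-1.08), Foxm1 (-0.95), Aurkb (-0.71), Mcm6 (-0.60), Mcm2 (-0.53) and Mcm4 (-0.50), all lower in effect at 28 weeks and all at an adjusted p of 0.538. Over the 41 genes 32 of these differences were negative, with a median of -0.36 against 0.05 for all genes, and the class medians were -0.36 for mitosis and -0.40 for replication. For Ccnd1 the difference in effect was -0.04 (SE 0.74, adjusted p = 0.988) and for Rrm1 -0.68 (SE 0.38, adjusted p = 0.581). Each age was deposited as its own table, and a change of handling between the tables cannot be told apart from age.

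Within a genotype the ages also gave no call (0 of 15662 genes in each contrast, edgeR). In knockouts Cdt1 was lower at 28 than at 20 weeks by a log2 value of -1.14 (SE 0.33), Foxm1 by -0.99 (SE 0.28) and Mcm6 by -0.50 (SE 0.15), each at an adjusted p of 0.429. In all, 8 of the 41 had an unadjusted p below 0.05 in knockouts (19.5%, against 11.2% of all genes) and 0 in controls (against 2.98%). In controls 30 of the 41 were higher at 28 weeks, with a median of 0.14. These contrasts share libraries with the difference in effect and add no separate evidence to it.

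Other genes of the same processes were counted in the same way, where 4.79% of all genes tested rose and 5.13% fell at 20 weeks, and 9.33% rose and 11.9% fell at 28 weeks. Of 40 further replication genes (origin recognition, GINS, polymerases, clamp loader and others), 0 rose and 1 fell at 20 weeks, and 3 rose and 1 fell at 28 weeks, with medians of 0.15 and 0.08. Dbf4, the activating partner of the CDC7 kinase at origins, was the gene that fell at both ages, from 37.1 ± 5.21 to 19.5 ± 3.52 CPM at 20 weeks (-0.93, SE 0.20, adjusted p = 0.0276) and by 0.78 on the log2 scale at 28 weeks (adjusted p = 0.0125). Gins2, of the GINS complex of the helicase, rose from 9.06 to 16.9 CPM at 28 weeks (0.90, adjusted p = 0.0130), with Orc6 of the origin recognition complex (0.44, adjusted p = 0.0429) and Rfc3 of the clamp loader (0.44, adjusted p = 0.0489).

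Of 48 further mitosis genes, 0 rose and 2 fell at 20 weeks, and 0 rose and 5 fell at 28 weeks, with medians of 0.14 and -0.16, and over all genes tested 5.13% and 11.9% fell. Gtse1, a microtubule-associated protein gene of G2 phase, fell from 51.7 ± 4.46 to 26.8 ± 7.81 CPM at 20 weeks (-0.95, adjusted p = 0.0410). It also fell at 28 weeks (-1.02, adjusted p = 0.0159). Ckap2, of the spindle, fell by 0.77 on the log2 scale at 20 weeks (adjusted p = 0.0323). At 28 weeks the smallest p was that of Kif23, a kinesin of the central spindle needed for cytokinesis, which fell from 26.8 ± 0.472 to 11.0 ± 1.74 CPM (-1.28, adjusted p = 0.00485). Cdc25b, a phosphatase that activates CDK1, fell from 14.1 to 4.61 CPM (-1.61, adjusted p = 0.00578), and Ect2, which activates RhoA at cytokinesis, fell by 0.61 on the log2 scale (adjusted p = 0.0147).

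A list of 20 genes held cell cycle brakes, the retinoblastoma family and others of its pathway, such as Cdk2, Cdk4, Cdk6, E2f3 and Tfdp1. Of these 20, 0 rose and 1 fell at 20 weeks, and 2 rose and 3 fell at 28 weeks. Over all genes tested 9.92% and 21.2% were called in either direction. Cdkn1c, which encodes the CDK inhibitor p57 of mature podocytes, fell from 56.6 ± 29.3 to 13.8 ± 3.99 CPM at 20 weeks (-2.03, adjusted p = 0.0162) and by 1.78 on the log2 scale at 28 weeks (adjusted p = 0.0108). The CDK4 and CDK6 inhibitor genes Cdkn2d (9.13 to 23.4 CPM, 1.36, adjusted p = 0.00603) and Cdkn2c (1.02, adjusted p = 0.0166) rose at 28 weeks. Wee1, whose kinase restrains CDK1, and E2f4, a repressive E2F, fell at 28 weeks by 0.74 (adjusted p = 0.0110) and 0.50 (adjusted p = 0.0261) on the log2 scale.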

How the data were processed

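Libraries of primary podocytes (SMARTER mRNA kit, per the labels' protocols) gave raw read counts per gene symbol, deposited by the authors as 1 table for each age. The authors also deposited FPKM, in which counts are scaled by gene length and by the total of the column. The build was GRCm38 (mm10), per the submitters' processing notes. Aligner, counter, strand setting and annotation: not given in the sources used here. Totals of 31405349 to 38989180 reads put the limit that 0 reads allows (3 counts) at 0.0769 to 0.0955 CPM, for counting error only.

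The libraries of 1 age were fitted apart from the other with edgeR 4.0.16 (R 4.3.3): TMM, filterByExpr, quasi-likelihood F test without a block, Benjamini-Hochberg over all genes tested, called below 0.05. Adjusted p-values and standard errors come from these fits unless another tool is named, and CPM used TMM-scaled library sizes. To compare ages, the 22290 genes listed at both entered 1 edgeR model with all 12 libraries, and 15662 were tested. Alternatives were RLE and upper-quartile scaling, DESeq2 1.42.0, other count filters, a replicate block, the 12-library model, limma 3.58.1 on log2 FPKM, each library left out, and control libraries 2 and 3 at 28 weeks summed (for the class medians, added after seeing the data). The edgeR fit was tested on simulated data. Class medians have no test.

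The 41 genes and all lists were chosen with earlier results of these data known. Every library is printed for called genes, for Mki67, Top2a, Cdk1, Pcna, Mcm2, E2f1, the D and E cyclins, and for the mitosis and replication genes with the smallest p at each age. Other genes given by library were chosen after their values were seen. Of the further lists, up to 3 called genes per age and direction are named.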

Additional observations from a re-analysis of the deposited data

How the results depend on the processing

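At 20 weeks 2 of the 41 genes were called, 4 with DESeq2, and 2 to 3 with each library left out in turn, Rrm1 and Ccnd1 in each case. At 28 weeks 4 were called, 1 with control libraries 2 and 3 summed, and 1 to 8 with each library left out in turn. Replicate numbers are shared between genotypes. Deviations of same-numbered libraries from their group means gave r = -0.10, 0.40 and -0.13 at 20 weeks and -0.62, -0.17 and -0.55 at 28 weeks. With 3 libraries per group these values cannot settle whether the numbers mark pairs. A fit with the replicate block called 2 of the 41 at 20 weeks and 0 at 28 weeks, where it called 332 of all genes against 3183 without it. Under the block the adjusted p at 28 weeks was 0.0744 for Tpx2, 0.0660 for Ccnd1, 0.106 for Rrm2 and 0.131 for Mybl2. With control libraries 2 and 3 summed, 1299 of all genes were called at 28 weeks. The contrasts between ages called 0 of the 41 genes in every alternative run, the replicate block included. Class medians moved by less than the SD between single libraries, a limit that leaving out 1 of 3 libraries can hardly reach. With each library left out, the mitosis median ran from -0.02 to 0.22 at 20 weeks and -0.45 to -0.17 at 28 weeks. The replication median ran from 0.16 to 0.44 and from -0.28 to 0.06. Among single genes printed by the rule, changes of sign were seen only in genes that were not called. At 20 weeks the values with each library left out ran from -0.27 to 0.27 for Mki67, -0.011 to 0.16 for Cdk1, -0.18 to 0.0019 for Ccne1 and -0.15 to 0.39 for Foxm1, and Cdk1 was at -0.0179 and -0.0198 in limma on log2 FPKM with a pseudocount of 1 and 0.1. At 28 weeks they ran from -0.24 to 0.061 for Mcm2, -0.16 to 0.37 for Ccne1 and -0.23 to 0.53 for Ccnd3, and with control libraries 2 and 3 summed Ccne1 was at -0.0198 and Ccnd3 at -0.14. The cause of these changes was not tested. Depth limits genes such as E2f2, read 62 times in 1 library.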
